A study of Mus musculus with 2 samples.

Results

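The genes described here encode enzymes and proteins that handle glutathione, thioredoxin and reactive oxygen species. There were 46 of them, fixed by symbol, out of 25959 named genes and unnamed loci in the files. Glutathione and thioredoxin are small thiol carriers that give electrons to enzymes that reduce peroxides and disulfides. Glutathione transferases join glutathione to reactive compounds, peroxidases and peroxiredoxins reduce peroxides, superoxide dismutases convert superoxide into hydrogen peroxide, and the pentose phosphate pathway supplies the NADPH that recharges the carriers. Many of these genes are known targets of the transcription factor NRF2, which the adaptor KEAP1 holds at a low level in unstressed cells. PPARg, the nuclear receptor that drives fat cell formation, is known to bind and regulate several metabolic genes in fat cells.

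Messenger RNA levels were read by sequencing in mesenchymal stem/progenitor cells (MSCs) of bone marrow, stromal cells that can form fat and bone cells. They came from CD-1 mice aged 3 months, labelled PPAR KO (here PPARg-deficient) in 1 library and PPAR-flox (here PPARg-floxed) in the other, and both were grown in DMEM with fetal bovine serum. The sources used here do not give how the floxed allele was recombined, which exons were floxed, or how many animals or cultures gave each RNA. With 1 library per group, differences below have no replicate check, no error between cultures and no p-value.

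Values are FPKM (fragment density along a transcript, relative to all mapped fragments of its library), summed over the transcripts of a gene. A locus was kept if it reached 1 FPKM in at least 1 library and had a transcript of at least 300 nt, which left 10750 loci. Covered bases summed to 1728 megabases in the PPARg-deficient library and 1383 megabases in the PPARg-floxed library, and fragment counts behind single genes are unknown. In the PPARg-deficient library FPKM values ran higher in general, and the shift of the median locus was 0.86 on the log2 scale of FPKM plus 1, or 1.81-fold. A "relative log2 fold" below is PPARg-deficient over PPARg-floxed after this shift is subtracted, and a gene is called higher or lower when that fold passes 2-fold, which is 1 on the log2 scale. FPKM values are as deposited.

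Pparg itself had 1.39 FPKM in the PPARg-deficient library and 6.86 FPKM in the PPARg-floxed library, a relative log2 fold of -2.58. Stromal markers were present, with Ly6a at 841 and 530 FPKM and Pdgfrb at 74.0 and 21.8 FPKM in the PPARg-deficient and PPARg-floxed libraries, while Eng, Thy1 and Lepr stayed under 1 FPKM in both. Of 10 leukocyte and macrophage markers, 7 stayed under 1 FPKM in both libraries and Ptprc was listed at 0 in both. These markers summed to 34.4 FPKM in the PPARg-deficient and 6.34 FPKM in the PPARg-floxed library, and their part in the values below was not tested. Lyz2 was at 19.5 FPKM in the PPARg-deficient and 0.26 FPKM in the PPARg-floxed library. Cd14 was at 12.5 and 4.52 FPKM and Cd68 at 2.10 and 1.56 FPKM in the same order. Of 6 granulocyte markers, 5 stayed under 1 FPKM in both libraries, and Camp was at 6.78 FPKM in the PPARg-deficient and 6.41 FPKM in the PPARg-floxed library. All 4 matched erythroid markers and all 4 endothelial markers were under 1 FPKM. In bulk RNA, fewer cells of a type and less RNA per cell cannot be told apart.

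Of the 46 genes, 39 passed the filter. Gsta1, Gsta2, Gsta3, Gstt2, Gstk1, Txnrd2 and Keap1 stayed under 1 FPKM in both libraries, and Gsta2 was listed at 0 in both. Of the 39 kept, 34 had at least 1 FPKM in both libraries, Gclc, Gclm and Gsr passed through the PPARg-deficient library alone, and Mgst2 and Gpx3 through the PPARg-floxed library alone. The genes did not move as a block. The 7 called higher were Gsto1, Gpx4, Sod2, Prdx3, Txnrd1, Nqo1 and Mt2, or 17.9% of those kept, where 10.3% of all kept loci were called higher. The 9 called lower were Mgst1, Mgst2, Gsta4, Gstm5, Gpx3, Gpx8, Prdx1, Prdx2 and Prdx4, or 23.1%, where 11.8% of all kept loci were called lower. These background shares varied with level. Of the 18 genes averaging 10 to 100 FPKM, 5 were higher and 2 lower, where 18.8% and 8.72% of kept loci at that level were. Of the 7 genes averaging under 10 FPKM, 1 was higher and 2 lower, where 6.82% and 11.8% of such loci were. Genes averaging at least 100 FPKM are covered with the peroxiredoxins below. Among the 34 genes at 1 FPKM or more in both libraries, 7 were higher and 7 lower, where 10.8% and 10.4% of such loci were. Their median relative log2 fold was -0.12 over the 39, beside 0 by construction for all kept loci. As deposited, without the shift, 15 genes passed the 2-fold line upward and 5 downward, where 41.9% and 4.66% of all kept loci did. The sign of small folds depends on this choice: 30 of the 39 genes were above 0 as deposited and 16 were above the median locus.

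**Figure D1:**
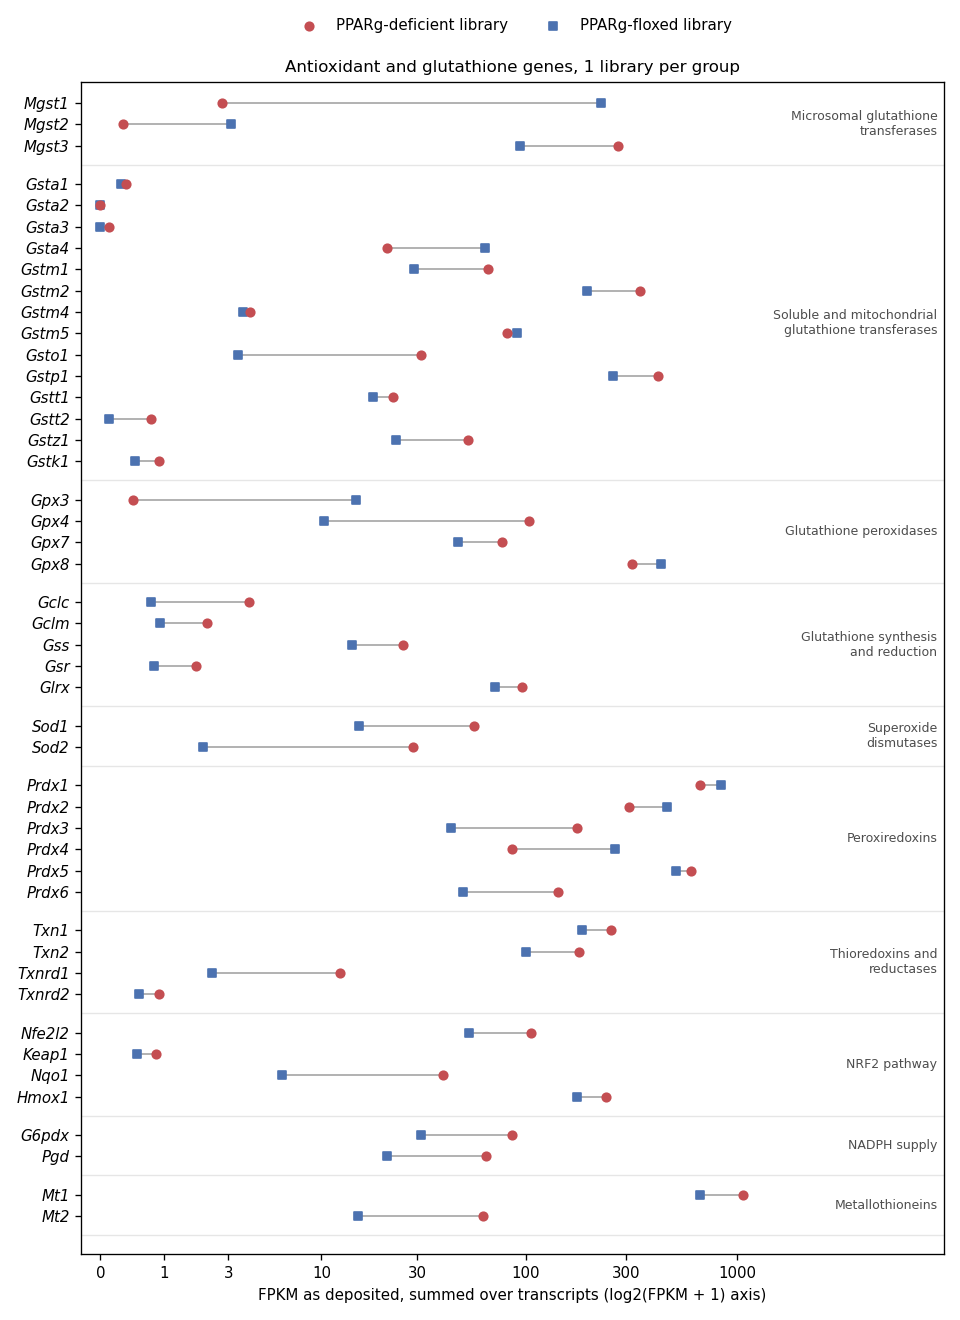
FPKM as deposited of all 46 genes in the PPARg-deficient library (circles) and the PPARg-floxed library (squares), by role, on a log2(FPKM + 1) axis. Mgst1 is at 2.75 FPKM in the PPARg-deficient and 227 FPKM in the PPARg-floxed library, while Gpx4 is at 103 FPKM in the PPARg-deficient and 10.3 FPKM in the PPARg-floxed library.

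**Figure D2:**
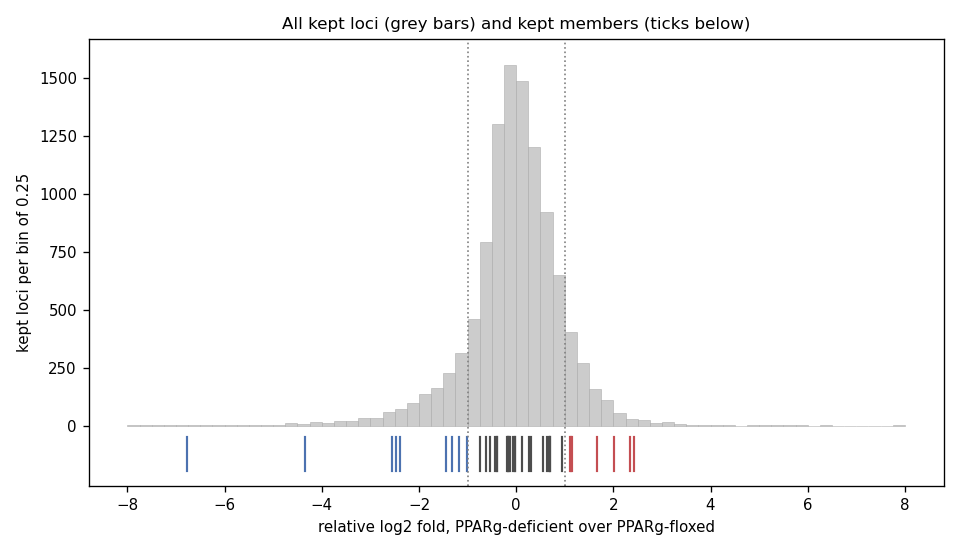
Relative log2 folds of the 10750 kept loci (grey bars) and of the 39 kept genes described here (ticks below, red when called higher, blue when called lower). The genes lie from -6.78 to 2.43, with a longer reach to the left than to the right.

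The microsomal glutathione transferases, membrane enzymes that conjugate glutathione and reduce lipid hydroperoxides, exchanged their order. Mgst1 had 2.75 FPKM in the PPARg-deficient library and 227 FPKM in the PPARg-floxed library, a relative log2 fold of -6.78. It was the lowest of the 39 genes and lay at percentile 0.112 of all kept loci, and the deposited bounds of its single transcript, 1.49 to 4.01 FPKM and 215 to 238 FPKM, were far apart. Its locus lies on chromosome 6 from 138089058 to 138105273 (mm9). Mgst2 was at 0.28 FPKM in the PPARg-deficient and 3.15 FPKM in the PPARg-floxed library, so its call rests on low values. Mgst3 went the other way, with 275 FPKM in the PPARg-deficient and 93.4 FPKM in the PPARg-floxed library, and its relative log2 fold of 0.69 stayed under the call. Within the family, shares do not depend on how the libraries are scaled. Mgst3 held 98.9% of the summed FPKM of the family in the PPARg-deficient library and 28.9% in the PPARg-floxed library, and Mgst1 held 0.99% and 70.1%. The family sum was 278 FPKM in the PPARg-deficient library and 323 FPKM in the PPARg-floxed library.

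Of the 14 soluble and mitochondrial glutathione transferases, 9 were kept. Among those kept, 1 was higher (11.1%) and 2 were lower (22.2%), where 10.3% and 11.8% of all kept loci were. Gsto1 encodes the omega class enzyme, which acts as a thiol transferase and reduces dehydroascorbate. It had 31.5 FPKM (deposited bounds 27.8 to 35.3) in the PPARg-deficient library and 3.46 FPKM (2.19 to 4.72) in the PPARg-floxed library, a relative log2 fold of 2.01. Gsta4 encodes the alpha class enzyme that conjugates aldehydes from lipid peroxidation. It had 21.4 FPKM (17.9 to 24.9) in the PPARg-deficient library and 64.2 FPKM (58.1 to 70.3) in the PPARg-floxed library, a relative log2 fold of -2.40. The other alpha class genes, Gsta1, Gsta2 and Gsta3, stayed under 1 FPKM in both libraries, so Gsta4 was the one alpha class gene of the set that passed the filter. Gsto1 stood at 1.47 times Gsta4 in the PPARg-deficient library and at 0.054 times in the PPARg-floxed library.

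The most abundant transferases differed less. Gstp1, the pi class gene, had 421 FPKM in the PPARg-deficient library and 259 FPKM in the PPARg-floxed library, a relative log2 fold of -0.16. Gstm2, of the mu class, had 346 FPKM and 195 FPKM, a relative log2 fold of -0.03, and Gstm1 had 65.8 FPKM and 29.1 FPKM, or 0.30. Gstp1 and Gstm2 together were the main part of the family in both libraries: Gstp1 held 40.1% of its FPKM in the PPARg-deficient and 37.6% in the PPARg-floxed library, and Gstm2 held 33.0% and 28.3%. Gstm5 was near level as deposited, at 81.5 FPKM in the PPARg-deficient and 91.0 FPKM in the PPARg-floxed library. Its relative log2 fold of -1.01 only just passed the call, the deposited bounds of its transcript overlapped, and it was not called as deposited (-0.16). Gstt1, of the theta class, had 22.9 FPKM and 18.3 FPKM (-0.54), and Gstz1, whose enzyme works in tyrosine breakdown, had 52.9 FPKM and 23.8 FPKM (0.27).

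The mu and pi genes sit in clusters of similar copies, and their values are uncertain. Gstm1, Gstm2 and Gstm4 share a locus with Gstm6 on chromosome 3 from 107741766 to 107847777 (mm9), and Gstp1 shares a locus with Gstp2 and Gstp3 on chromosome 19 from 4035404 to 4059294. Each transcript there was given to the gene whose structure it matched. Most of Gstm2 came from a 326 nt transcript with 248 FPKM in the PPARg-deficient library and 119 FPKM in the PPARg-floxed library, which spans from 107745140 to 107789366 and matched by a run of lengths only. Summed over every transcript, the mu locus had 588 FPKM in the PPARg-deficient library and 316 FPKM in the PPARg-floxed library (relative log2 fold 0.04), and the pi locus had 474 FPKM and 295 FPKM (-0.18), so neither cluster was called. Within Gstm4, a pair of transcripts changed places. The 1669 nt transcript had 4.08 FPKM (2.99 to 5.18) in the PPARg-deficient library and 0.82 FPKM (0.16 to 1.47) in the PPARg-floxed library. The 1464 nt transcript was at most 0.17 FPKM by its upper bound in the PPARg-deficient library and 2.86 FPKM (1.75 to 3.97) in the PPARg-floxed library. The gene sums were alike as deposited, at 4.08 FPKM in the PPARg-deficient and 3.67 FPKM in the PPARg-floxed library.

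Glutathione peroxidases diverged by member. Gpx4 encodes the selenoenzyme that reduces phospholipid hydroperoxides inside membranes and restrains ferroptosis. It had 103 FPKM (95.4 to 111) in the PPARg-deficient library and 10.3 FPKM (7.76 to 12.8) in the PPARg-floxed library, a relative log2 fold of 2.35 at percentile 99.1 of kept loci. Nearly all of this came from a 933 nt transcript that matched Gpx4 by a run of lengths only. The 937 nt and 995 nt transcripts, which matched by a whole chain, had upper bounds under 1 FPKM in both libraries. Gpx3 encodes the secreted plasma selenoenzyme. It had 0.43 FPKM (0.045 to 0.81) in the PPARg-deficient library and 15.0 FPKM (12.7 to 17.3) in the PPARg-floxed library, a relative log2 fold of -4.34 at percentile 0.502. Gpx7 and Gpx8 encode peroxidases of the endoplasmic reticulum that lack selenocysteine. Gpx8 was the most abundant of the family, with 318 FPKM in the PPARg-deficient and 439 FPKM in the PPARg-floxed library (-1.32), a call that ended as deposited (-0.46). Gpx7 had 77.2 FPKM and 47.2 FPKM (-0.16). The share of Gpx4 in the summed FPKM of these 4 genes was 20.7% in the PPARg-deficient library and 2.01% in the PPARg-floxed library, that of Gpx3 was 0.086% and 2.93%, and that of Gpx8 was 63.7% and 85.8%. The family sum was nearly level, at 499 FPKM in the PPARg-deficient and 511 FPKM in the PPARg-floxed library.

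Of 5 fat cell markers, 2 were kept, Adipoq and Fabp4. Both were called lower, Fabp4 only after the shift, where 11.8% of all kept loci were called lower. Adipoq, like Gpx3, passed the filter through the PPARg-floxed library alone, so its fold could only be downward. Adipoq was at 0.10 FPKM in the PPARg-deficient and 9.87 FPKM in the PPARg-floxed library, and Fabp4 at 12.7 and 17.6 FPKM. All 5 summed to 12.9 FPKM in the PPARg-deficient and 27.6 FPKM in the PPARg-floxed library, while Plin1 and Lep were listed at 0 in both libraries and Cidec was listed at 0 in the PPARg-deficient and had 0.074 FPKM in the PPARg-floxed library. The part of fat cell RNA in the values of Mgst1 and Gpx3 was not tested.

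**Figure D3:**
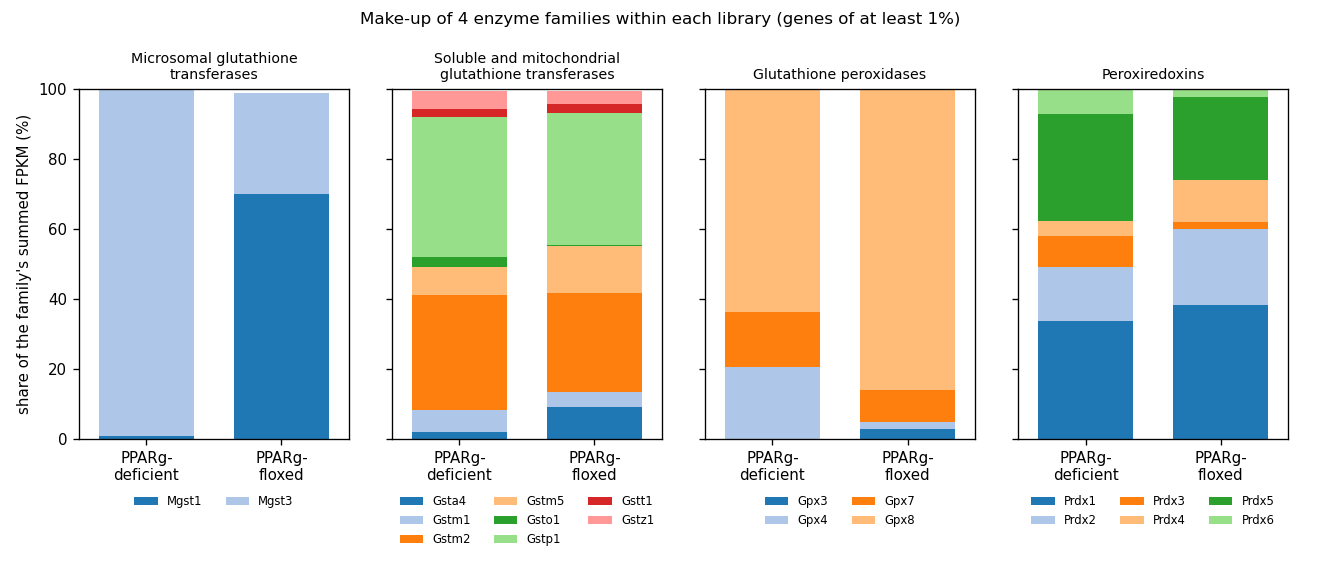
Share of each gene in the summed FPKM of its family, in percent, in the PPARg-deficient (left bars) and PPARg-floxed library (right bars). Genes under 1% in both libraries are left out, so a bar can end just below 100. Mgst3 fills 98.9% of the microsomal family in the PPARg-deficient library and 28.9% in the PPARg-floxed library.

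The 6 peroxiredoxins were abundant in both libraries and summed to 1987 FPKM in the PPARg-deficient and 2178 FPKM in the PPARg-floxed library. Peroxiredoxins use a reactive cysteine to reduce hydrogen peroxide, and the members differ in where they work in the cell. Prdx3, the mitochondrial member, was the one called higher, with 176 FPKM (168 to 183) in the PPARg-deficient library and 43.7 FPKM (39.8 to 47.7) in the PPARg-floxed library, a relative log2 fold of 1.12 that fell below the call with a pseudocount of 0.1 FPKM (0.86), a filter of 5 FPKM (0.91) and upper-quartile scaling (0.91). Prdx4, the member of the endoplasmic reticulum, was the lowest, with 86.0 FPKM (79.1 to 92.9) in the PPARg-deficient library and 265 FPKM (252 to 277) in the PPARg-floxed library, a relative log2 fold of -2.47. The ratio of Prdx3 to Prdx4 was 2.04 in the PPARg-deficient library and 0.165 in the PPARg-floxed library.

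The cytosolic pair Prdx1 and Prdx2 was lower in relative terms and, less so, as deposited. Prdx1 had 670 FPKM in the PPARg-deficient library and 838 FPKM in the PPARg-floxed library (relative log2 fold -1.18), and Prdx2 had 310 FPKM and 468 FPKM (-1.45). Neither was called as deposited, at -0.32 and -0.59. Prdx5, found in mitochondria, peroxisomes and cytosol, had 603 FPKM and 513 FPKM in the same order (-0.62). Prdx6, which also has phospholipase activity, had 142 FPKM and 50.3 FPKM (0.62). Prdx1, Prdx2 and Prdx5 each share at least 200 nt at 95% identity or more with another annotated transcript, so part of their reads could belong elsewhere. For Prdx5 that gene is its neighbour Trmt112, which overlaps it on the opposite strand, and whether the counting used strand is not given in the sources used here. Over all kept loci averaging at least 100 FPKM, 21.1% were called lower and 10.2% higher, with a median relative log2 fold of -0.19. Of the 14 genes described here at that level, 5 were lower and 1 was higher.

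Both superoxide dismutases were higher as deposited. Sod1, the cytosolic copper and zinc enzyme gene, had 56.4 FPKM in the PPARg-deficient library and 15.5 FPKM in the PPARg-floxed library, and its relative log2 fold of 0.94 fell just short of the call. Sod2, the mitochondrial manganese enzyme gene, had 28.6 FPKM and 2.04 FPKM, a relative log2 fold of 2.43 and the highest of the 39 genes. Most of the Sod2 signal in the PPARg-deficient library came from a short transcript of 768 nt that shares the first exons of the gene but ends 14812 bases beyond the others, at 13227810 on chromosome 17 (mm9). That transcript had 23.1 FPKM (18.5 to 27.7) in the PPARg-deficient library and 0.26 FPKM (0 to 0.97) in the PPARg-floxed library. Without it, Sod2 had 5.50 FPKM in the PPARg-deficient and 1.78 FPKM in the PPARg-floxed library, and the relative log2 fold of 0.37 was no longer called. The 3824 nt transcript, with the annotated exon chain, had 4.02 FPKM (3.22 to 4.82) and 0.80 FPKM (0.40 to 1.19) in the same order, and the 5837 nt transcript had 1.48 FPKM and 0.98 FPKM with bounds that overlapped.

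Of the 5 genes of glutathione synthesis and reduction, 0 were called in either direction, where 10.3% of all kept loci were called higher and 11.8% lower. Gclc, Gclm and Gsr were under 1 FPKM in the PPARg-floxed library, where adding 1 FPKM understates a fold. Gclc and Gclm, the catalytic and modifier subunits of the rate-limiting ligase, were low. Gclc had 4.02 FPKM in the PPARg-deficient library and 0.73 FPKM in the PPARg-floxed library (relative log2 fold 0.68). That gene passed the 2-fold line upward as deposited (1.53), with TPM (1.68), with no filter (1.48), with a pseudocount of 0.1 FPKM (1.17) and with scaling without the 100 most abundant loci (1.10). Gclm had 2.16 FPKM and 0.90 FPKM (-0.12). Gss, the glutathione synthetase gene, had 25.7 FPKM and 14.3 FPKM (-0.06). Gsr, the glutathione reductase gene, had 1.83 FPKM and 0.79 FPKM (-0.20) with overlapping bounds, and Glrx, the glutaredoxin gene, had 96.0 FPKM and 70.9 FPKM (-0.43). Per length, Gclc, Gclm and Gsr were the least abundant of these 5 genes in both libraries.

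In the thioredoxin system, Txn1 and Txn2, the cytosolic and mitochondrial carriers, were abundant and close to the median locus. Txn1 had 254 FPKM in the PPARg-deficient library and 184 FPKM in the PPARg-floxed library (relative log2 fold -0.39), and Txn2 had 180 FPKM and 100.2 FPKM (-0.02). Txnrd1 encodes the cytosolic selenoenzyme that recharges thioredoxin, and it was higher, with 12.5 FPKM in the PPARg-deficient library and 2.34 FPKM in the PPARg-floxed library, a relative log2 fold of 1.15 that fell below the call with a pseudocount of 5 FPKM (0.82), a filter of 5 FPKM (0.94) and the most abundant transcript alone (0.97). Txnrd2, its mitochondrial counterpart, stayed at 0.88 FPKM and 0.52 FPKM.

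Txnrd1 transcripts with different starts were listed in the PPARg-deficient library. The 3310 nt transcript, which starts at 82321951 on chromosome 10 (mm9), had 10.8 FPKM (9.50 to 12.1) in the PPARg-deficient library and 2.34 FPKM (1.76 to 2.93) in the PPARg-floxed library. The 3634 nt transcript, which starts 25255 bases upstream at 82296696, had 1.68 FPKM (1.07 to 2.29) in the PPARg-deficient library and was listed at 0 with an upper bound of 0.064 FPKM in the PPARg-floxed library. RefSeq starts on GRCm38 have the same spacing of 25255 bases, which tied each window to its start without converting a coordinate. The 250 bases before both starts, from RefSeq on GRCm38.p6, plus strand, are shown because they are the promoter regions of transcripts that differ between the libraries; capitals mark the letters TGACNNNGC on either strand, the core of the antioxidant response element through which NRF2 acts.
Txnrd1, upstream start, chr10:82833701-82833950: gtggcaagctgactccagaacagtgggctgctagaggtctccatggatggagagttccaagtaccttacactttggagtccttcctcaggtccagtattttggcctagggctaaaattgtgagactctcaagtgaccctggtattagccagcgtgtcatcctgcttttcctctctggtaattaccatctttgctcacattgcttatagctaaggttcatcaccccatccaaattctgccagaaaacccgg
Txnrd1, major start, chr10:82858956-82859205: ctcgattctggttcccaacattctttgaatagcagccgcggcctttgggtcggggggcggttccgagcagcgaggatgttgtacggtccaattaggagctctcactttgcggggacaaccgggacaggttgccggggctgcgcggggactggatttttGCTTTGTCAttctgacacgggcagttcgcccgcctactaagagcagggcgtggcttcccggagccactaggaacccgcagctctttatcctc

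The motif lay at -92 from the major Txnrd1 start, on the opposite strand, and had no match in the window before the upstream start. Windows of 250 bases were found for 40 of the 46 genes, 51 windows in all, and Gsta4, Gstt2, Gclc, Gsr, Prdx6 and Hmox1 had none. TGACNNNGC was found in 10 of the 51 windows (19.6%), in G6pdx, Gclm, Gsta3, Gstm5, Mgst1, Mt2, Nfe2l2, Prdx1, Sod1 and Txnrd1, where 10.2% of all 32851 RefSeq windows hold it. Genes with the motif were found on every side: 2 of 7 called higher, 3 of 8 called lower and 4 of 19 in between. The exact PPAR response element of the direct repeat 1 type had no match in any of the 51 windows. Only 0.0335% of all windows hold it, so a match in 51 windows was unlikely from the start. Its absence decides nothing about PPARg at these genes. Metal response letters, TGCACNC or TGCGCNC on either strand, were in 18 windows (35.3%), against 21.4% of all windows, and overlapped the antioxidant letters in Gclm alone. A match is a run of letters, not a tested site, and these windows miss elements farther away.

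Of the NRF2 pathway genes, Nqo1, which encodes a quinone reductase, was the one called higher. It had 39.9 FPKM in the PPARg-deficient library and 6.14 FPKM in the PPARg-floxed library, a relative log2 fold of 1.66, and the bounds of its major transcript, 29.2 to 36.1 FPKM and 4.71 to 7.56 FPKM, did not overlap. A second Nqo1 transcript of 1468 nt had 7.25 FPKM in the PPARg-deficient library and an upper bound of 0.17 FPKM in the PPARg-floxed library. Nfe2l2, which encodes NRF2, had 106 FPKM and 53.4 FPKM in the same order, a relative log2 fold of 0.11. Hmox1, the heme oxygenase gene, had 241 FPKM and 176 FPKM (-0.40), and Keap1 was at 0.83 FPKM and 0.49 FPKM. Nqo1 and Hmox1, both textbook NRF2 targets, thus differed in their calls.

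The NADPH genes G6pdx and Pgd, which encode the dehydrogenases of the oxidative pentose phosphate pathway, were alike. G6pdx had 85.6 FPKM in the PPARg-deficient library and 31.4 FPKM in the PPARg-floxed library (relative log2 fold 0.56), and Pgd had 64.6 FPKM and 21.4 FPKM (0.69). Both passed the 2-fold line upward as deposited and neither was called relative to the median locus. Metallothioneins, cysteine-rich proteins that bind zinc and copper, differed from each other. Mt1 had 1068 FPKM in the PPARg-deficient library and 666 FPKM in the PPARg-floxed library (-0.17), and Mt2 had 62.4 FPKM and 15.3 FPKM (1.10), a call that ended with a pseudocount of 0.1 FPKM (0.88), a filter of 5 FPKM (0.89) and upper-quartile scaling (0.91). Mt1 was 17.1 times as abundant as Mt2 in the PPARg-deficient library and 43.5 times in the PPARg-floxed library.

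**Figure D4:**
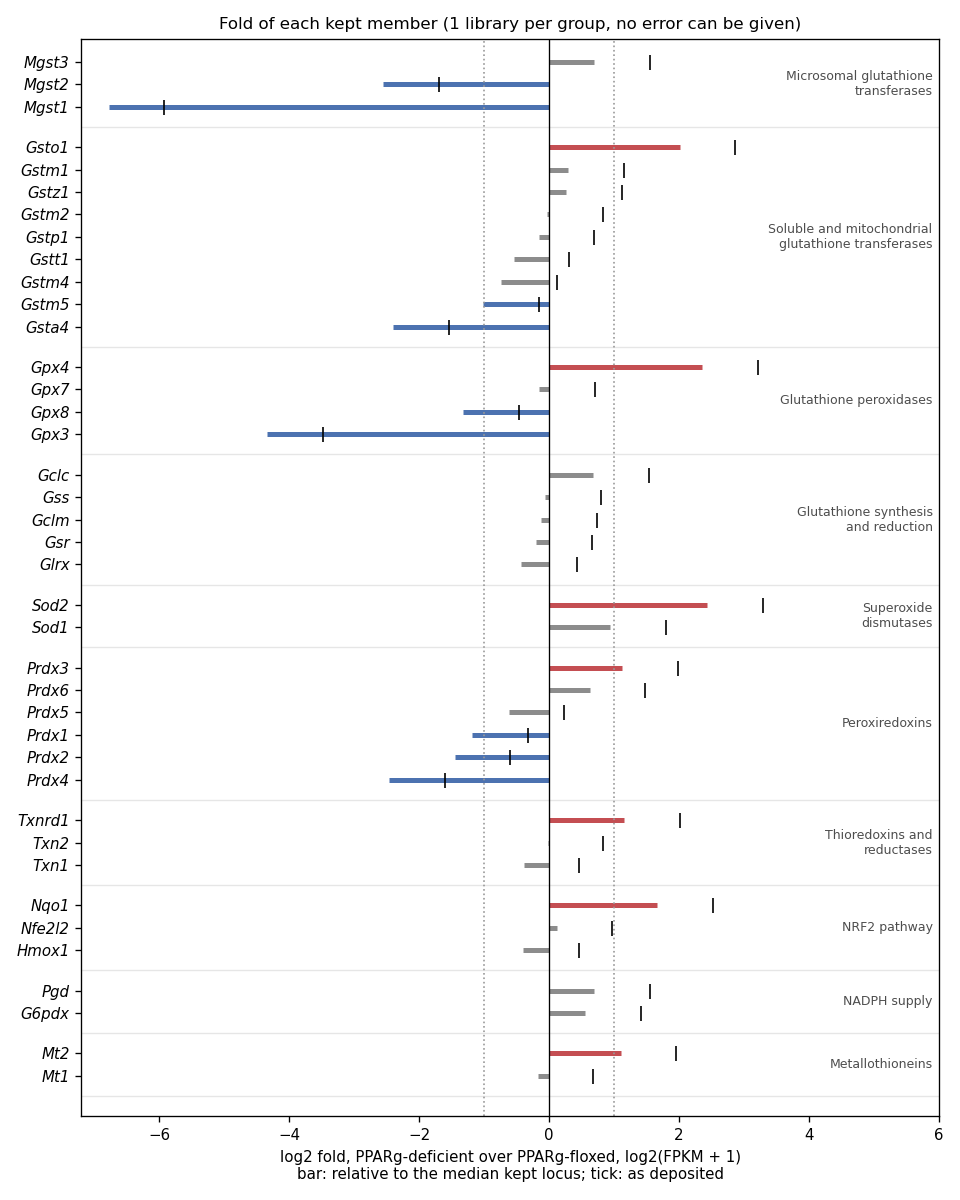
log2 fold of the 39 kept genes, PPARg-deficient over PPARg-floxed. Bars are relative to the median kept locus (red called higher, blue called lower, grey within 2-fold) and black ticks are the folds as deposited; no error can be given with 1 library per group. The glutathione peroxidases lie on both sides, with Gpx4 at 2.35 and Gpx3 at -4.34, and every tick lies 0.86 to the right of its bar end.

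**Figure D5:**
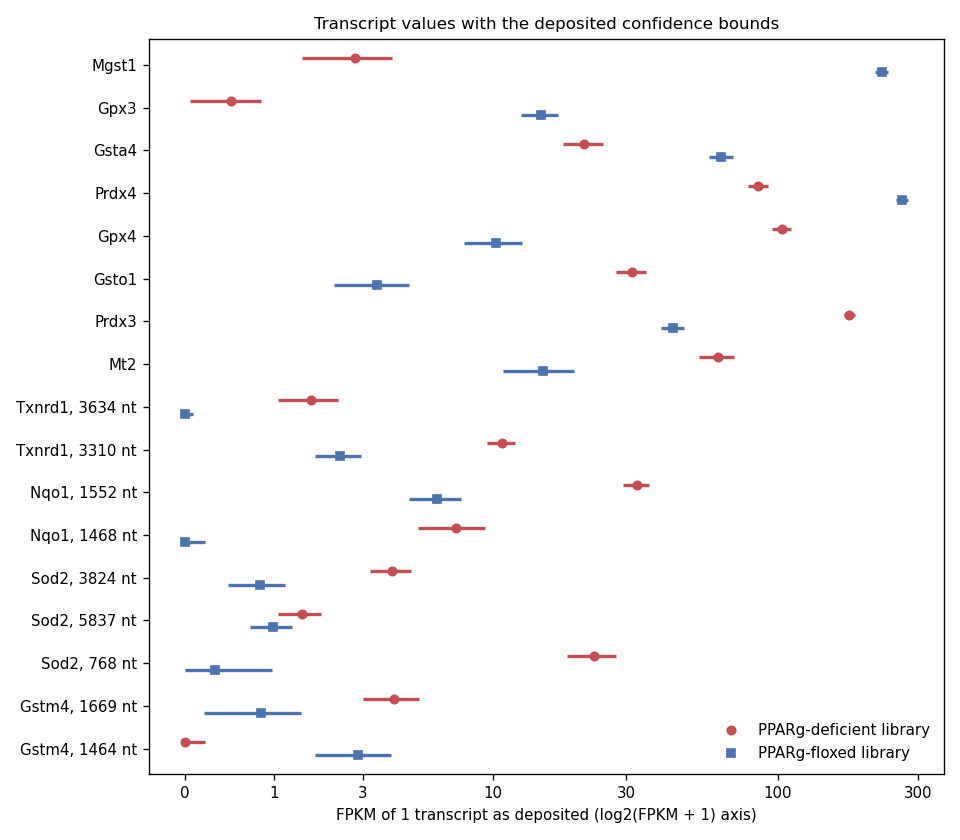
FPKM of single transcripts with the deposited bounds (lines) in the PPARg-deficient (circles) and PPARg-floxed library (squares), on a log2(FPKM + 1) axis. Single rows show a gene's most abundant transcript, and rows with a length in nt show each transcript of Txnrd1, Nqo1, Sod2 and Gstm4 that reached 1 FPKM. The bounds of the 5837 nt Sod2 transcript overlap between the libraries, and those of the 768 nt transcript do not.

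The deposited bounds of the most abundant transcript did not overlap between libraries in 36 of the 39 kept genes, and in 15 of the 16 called ones. After the 1.81-fold shift was taken out, they did not overlap in 32 of the 39. With non-overlapping deposited bounds also required, 10.2% of all kept loci were called higher and 8.08% lower, where 10.3% and 11.8% were without it. The share of all kept loci with non-overlapping bounds, called or not, was not computed. The counts of 36 and 32 are therefore not read as particular to these genes. These bounds describe the estimate within a library and not the spread between cultures. Genes sharing at least 200 nt at 95% identity with another annotated transcript numbered 12, among them Gpx4, Sod1, Txn1 and Mt2, and their values could include reads from those copies.

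Other genes of the pathway were read from a list of 81 symbols, of which 76 were matched and 55 kept. Of these 9 were higher and 5 lower (16.4% and 9.09%), where 10.3% and 11.8% of all kept loci were, and the median relative log2 fold was 0.18. Cyba and Ggt7, both among the 5, passed the filter through the PPARg-floxed library alone. Cyba, a membrane subunit of the NADPH oxidases, had 0.39 FPKM in the PPARg-deficient library and 11.3 FPKM in the PPARg-floxed library (-4.01). Selenop, the secreted selenium carrier, had 27.0 FPKM and 124 FPKM (-3.01). Both were called lower. On the other side, Ephx1, the microsomal epoxide hydrolase gene, had 442 FPKM in the PPARg-deficient library and 69.8 FPKM in the PPARg-floxed library (1.79). Blvrb, a biliverdin reductase gene, had 20.1 FPKM and 2.0 FPKM (1.96), and Sqstm1, whose protein binds KEAP1, had 27.2 FPKM and 3.99 FPKM (1.64). Glrx3, Txnl1 and Hagh were also higher, with relative log2 folds of 1.45, 1.40 and 1.38. The catalase gene Cat stayed at the median, with 71.4 FPKM in the PPARg-deficient and 37.4 FPKM in the PPARg-floxed library (0.06).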

How the data were processed

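Total RNA of 2 libraries, 1 per group, was sequenced on a HiSeq2000. The deposited files give FPKM, its confidence bounds and coverage per transcript, written by Cufflinks per the files' source column. Per the submitters' processing notes, the tools and build listed are TopHat2 2.0.5, Cufflinks 2.0.2, Cuffdiff 2.0.2 and mm9. The sources used here do not give the annotation, filters or strand handling.

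The files list 45543 transcripts in 25707 loci without symbols. Loci were named here by matching ordered intron and internal exon lengths to GENCODE M21 on the same chromosome and strand, which named 18990 loci. All 46 genes were found, 39 through a whole chain of their most abundant transcript and 7 through a run of 3 lengths. In loci matching several genes, each transcript went to the gene it matched alone. FPKM is relative to a library's total, so abundant genes shift all others. Folds used log2 of FPKM plus 1, which understates changes of low genes. The genes and lists were chosen with earlier results of these data known. All 46 genes are named, then up to 8 list genes with the largest relative fold that reach 5 FPKM in a library. Cat and the Txnrd1 promoters, the only sequences shown, were chosen after their values were seen. Alternatives varied the pseudocount, filter, scaling, transcript choice and threshold. The 2-fold call was also run on simulated libraries with known folds. The added folds were set beyond 2-fold and the noise was set small, so that run is no check of the calls made here. Near copies were sought with BLAST. Python 3.11.15, numpy 2.4.6, pandas 2.3.3 and matplotlib 3.10.9 were used.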

Additional observations from a re-analysis of the deposited data

Results flagged for a closer look

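A transcript of 532 nt in the mu class locus matched no annotated gene and entered no gene sum. It runs from 107815168 to 107845056 on chromosome 3 (mm9) with 2 exons and had 171 FPKM (deposited bounds 154 to 188) in the PPARg-deficient library and 87.6 FPKM (75.5 to 99.8) in the PPARg-floxed library. It was picked out because it carries signal outside the genes compared, above the level in the PPARg-floxed library as deposited. Its relative log2 fold was 0.10, within the 2-fold line. Its span reaches from Gstm1 into Gstm4.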

How the results depend on the processing

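The count of the 46 genes higher and lower (7 and 9) became 15 and 5 as deposited (41.9% and 4.66% of all kept loci), with no filter on low values (17.0% and 2.17%), and with TPM over transcripts of at least 300 nt (42.5% and 5.53%). It was 5 and 9 with upper-quartile scaling (10.8% and 12% of all kept loci). With scaling without the 100 most abundant loci it was 9 and 8 (18.3% and 8.28%). A filter of 5 FPKM left 4 of 34 higher (11.8% of loci), a 1.5-fold threshold gave 12 higher (21.9%), and a 4-fold threshold gave 3 higher and 5 lower (1.52% and 3.94%). The median of the genes (-0.12) turned positive with a pseudocount of 5 FPKM (0.23), no filter (0.62), as deposited (0.73), TPM (0.71) and scaling without those 100 (0.13). The pathway list (9 higher, 5 lower) gave 27 and 2 with no filter, 30 and 2 as deposited, 28 and 3 with TPM, 14 and 3 without those 100, 17 higher at 1.5-fold, and 0 and 2 at 4-fold. The shares of all kept loci in those settings are the ones given above. The list's lower count was 2 with a pseudocount of 5 FPKM (4.02% of all kept loci) and 3 with a filter of 5 FPKM (14%). It was also 3 among loci at 1 FPKM in both libraries (10.5%, with the median taken over those loci), an alternative chosen after seeing the data. Fewer loci are kept under a higher filter, and fewer pass a higher threshold, by construction. None of the 7 higher genes was removed by the filter of 5 FPKM. Prdx3 (0.91), Txnrd1 (0.94) and Mt2 (0.89) fell under the call there, relative to the median of the loci that filter kept. The cause of the other shifts was not tested.

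Gsto1, Gpx4 and Nqo1 stayed called higher, and Mgst1, Mgst2, Gsta4, Gpx3 and Prdx4 lower, in every alternative that kept them and used the 2-fold call. Mgst2 and Gpx3, which had passed through the PPARg-floxed library alone, were dropped where 1 FPKM was required in both libraries. Mgst2 was also dropped by the filter of 5 FPKM. Their calls were therefore tried in fewer settings than those of the others. No called gene changed sign. Leaving out the long-reaching Sod2 transcript, also chosen after seeing the data, ended the Sod2 call. No paired analysis was possible because there was 1 library per group, so no replicate was left out. Fragment counts behind genes near 1 FPKM, such as Gsr, Gclm and Keap1, are unknown.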
